A study of Rattus norvegicus with 4 samples.

Results

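The hedgehog pathway genes examined were 9: the ligands Shh, Ihh and Dhh, the receptor Ptch1, the ligand-binding inhibitor Hhip, the co-receptor Gas1, and the transcription factors Gli1, Gli2 and Gli3. Their members in the data are the H3K27me3 peaks that the authors' annotation assigns to them by nearest transcription start site (TSS). There were 146 such peaks of 129550 in all, and they named 8 of the 9 genes. No peak was assigned to Gas1. H3K27me3, trimethylation of histone H3 at lysine 27, is laid down by the Polycomb repressive complex PRC2 and marks genes that are kept silent or poised.

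The rats were male Sprague Dawley animals at postnatal day 42, the tissue was their sciatic nerve, and the labels name no genetic change. All nerves came from the sham side, where only the skin was incised, 1 day after the contralateral nerve was transected. There were 2 H3K27me3 libraries and 2 input libraries, made from MNase-digested chromatin. The labels do not say how many animals went into each library. The authors combined the H3K27me3 libraries into 1 peak list on the rat assembly rn5, so each peak has 1 score, no replicate error exists and no test between genes was made. The depth of each library is unknown.

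Hedgehog ligands are secreted, lipid-modified proteins. In their absence the receptor Ptch1 holds the membrane protein Smo inactive. Ligand binding frees Smo, and Gli transcription factors then switch target genes on. Ptch1, Hhip and Gli1 are themselves classic targets, so the pathway builds its own feedback. Gli3 acts largely as a repressor, Gli2 largely as an activator, and Gas1 helps ligands bind Ptch1. In peripheral nerve, Dhh made by Schwann cells directs formation of the perineurial sheath, and Shh is a gene that Schwann cells switch on after injury. Whole nerve also holds fibroblasts, perineurial, endothelial and immune cells, and a mark carried partly by most cells cannot be told apart from a mark carried fully by some of them.

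The marked promoters were those of the ligands, of Hhip and of Gli3. A promoter peak is here a peak of the gene's own that contains the TSS or has an edge no more than 1000 bp from it. By that rule 5 of the 9 genes had a promoter peak (Shh, Ihh, Dhh, Hhip and Gli3), while 17.2% of all 23148 protein-coding genes did. These 23148 genes come from a gene table for another rat assembly, GRCr8. Any that the authors' annotation lacks count as without a peak. Ptch1, Gli1 and Gli2 had peaks only farther away. Among genes that at least 1 peak names, 38.7% had a promoter peak, beside 62.5% of the 8 hedgehog genes so named. Peaks of at least 5000 bp at the promoter were found for 3 of the 9 genes (Shh, Dhh and Hhip) and for 2.36% of protein-coding genes. The count depended on the reach. It was 3 of 9 for peaks that contain the TSS (6.15% of all genes), and 7 of 9 for peaks up to 5000 bp away (27.7%), since Ptch1 and Gli1 then joined. With only peaks whose centre the authors class as promoter-TSS, it was 1 of 9, Gli3, against 8.27% of all genes. It was 5 of 9 with a score of at least the median (14.7% of all genes), with the top 25% of scores (12.6%), with peaks merged across gaps of up to 5000 bp (17.8%) and with peaks of any gene (17.3%).

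Scores and widths covered a wide range within the pathway. Each peak's score comes from the authors, without a stated scale. Scores below 10 all fell on multiples of 0.2063, within a tolerance of 0.005, and the 95% counting intervals given here assume that each step is 1 sequenced tag. They are exact Poisson intervals that cover counting error only. Comparisons with other genes use the 3974 protein-coding genes that had a promoter peak, whose highest promoter score had a median of 40.8 (quartiles 8.87 and 124.4) and whose widest promoter peak had a median of 1357 bp. Wider peaks had higher scores, with a median of 30 per kb.

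**Figure D1:**
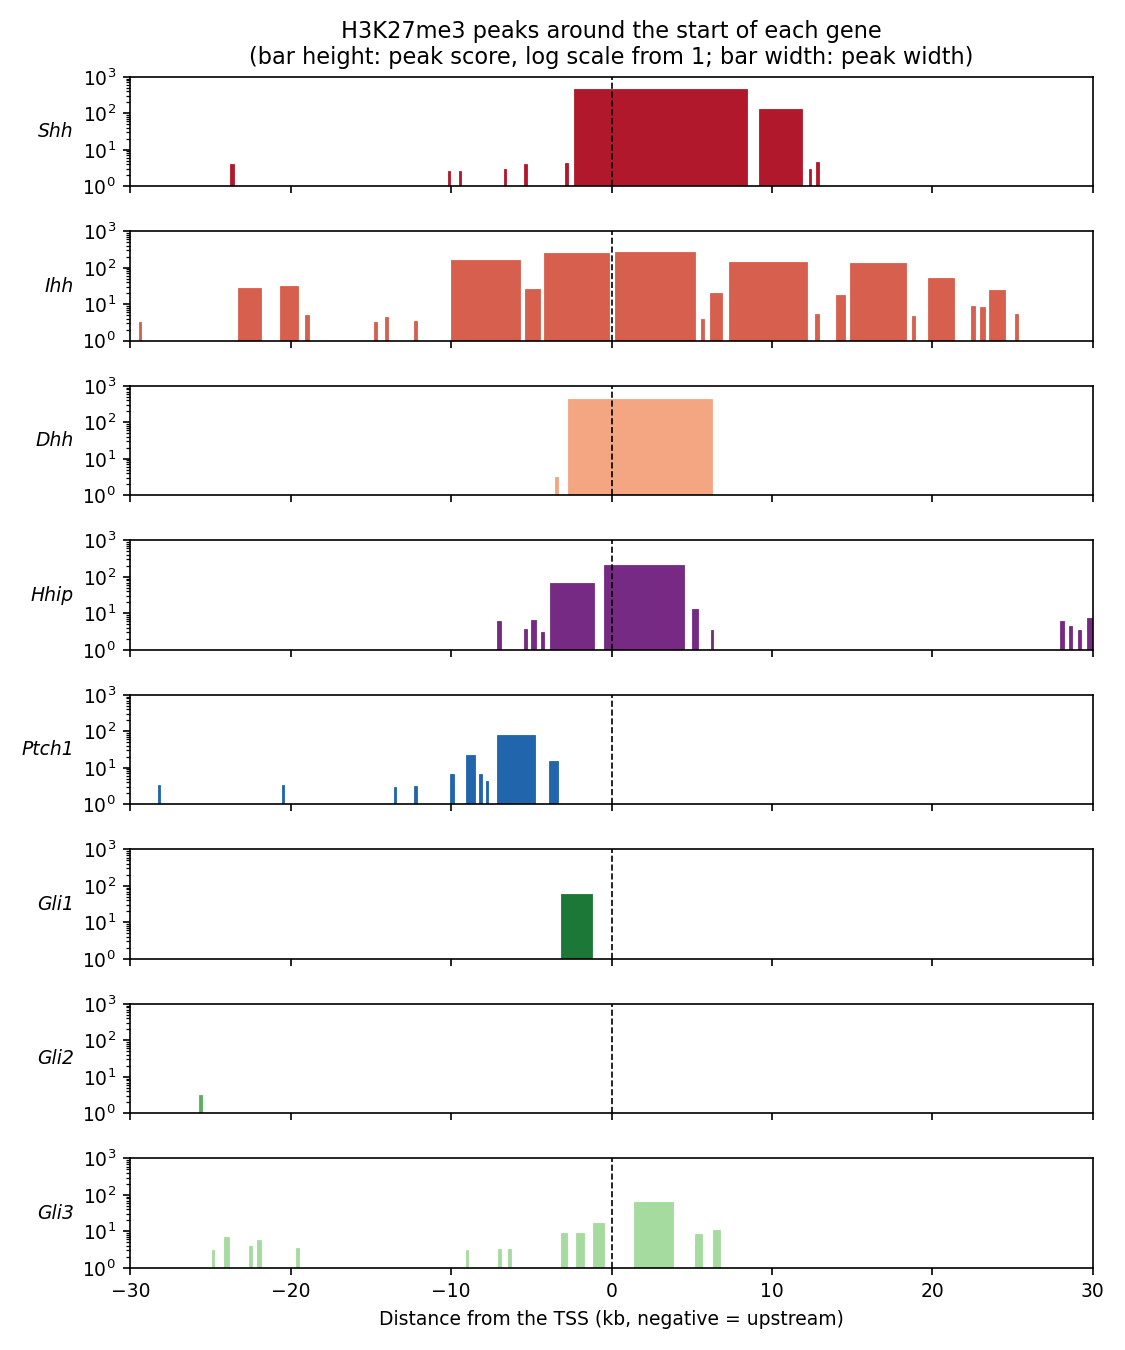
Peaks assigned to each of 8 hedgehog genes, by distance from the TSS in kb (negative is upstream), in a window of 30 kb on either side, with the peak score as bar height on a log axis from 1 and the peak width as bar width. The TSS, a dashed line, lies inside a broad peak at Shh, Dhh and Hhip, in a gap of 382 bp between broad peaks at Ihh, and outside any peak at Ptch1, Gli1, Gli2 and Gli3.

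Shh had the widest and highest-scoring promoter peak of the pathway. It spanned 10795 bp on chromosome 4 (712106 to 722901 in rn5), was centred in intron 1 of 2, and scored 450.7 (counting interval 432.0 to 470.0). Among genes with a promoter peak it stood at percentile 94.5 by score and 96.2 by width. The peak was lopsided about the TSS at 720573. It held 2328 bp upstream and 8467 bp downstream, which is the side of the gene body. A further broad peak followed downstream, 2665 bp wide and centred 10509 bp from the TSS, which scored 134.7 (124.6 to 145.4).

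The other Shh peaks were small. Of its 14 peaks, 7 had the smallest width of the list, 150 bp, and the median score was 4.23. The highest of the distant ones lay 111547 bp upstream, with a width of 1694 bp and a score of 27.2 (22.8 to 32.3), beside a peak of 799 bp with 14.9. Within 100 kb of the TSS on either side, all 10 peaks belonged to Shh. They covered 7.37% of that window. Windows of 200 kb laid from each chromosome start, and so not centred on genes, had a median of 0.295% and an upper quartile of 2.55%. Among them the Shh window stood at percentile 90.6, below those of Dhh (92.9) and Ihh (99.9).

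Dhh, the Schwann cell ligand, carried the mark in a compact form. Its promoter peak spanned 8983 bp (115082017 to 115091000 on chromosome X of rn5) and scored 436.7 (418.2 to 455.7), so its interval overlaps that of Shh. It reached 2727 bp upstream of the TSS and 6256 bp downstream. The gene is 5496 bp long in the GRCr8 annotation, shorter than the downstream arm. Only 1 other peak named Dhh, 150 bp wide and scoring 3.09, and 99.3% of the gene's summed score lay in the broad peak. The score stood at percentile 94.2 of promoter scores, at a gene that Schwann cells are known to transcribe. The part of the nerve's other cell types in this peak was not tested.

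The chromosome given for Dhh differs between assemblies. In rn5 its peaks lie on chromosome X, and in GRCr8 the gene lies on chromosome 7. It was not alone: an rn5 stretch of 1.33 Mb on X held 157 peaks assigned to 30 genes, and all 30 genes are on chromosome 7 in GRCr8. The nearest assigned neighbour, Rhebl1, had peaks of at most 17.3, and Ddn, farther off, had 122.7 at 96115 bp from the Dhh TSS.

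Ihh, best known from growing cartilage and gut, had the most extended mark of the pathway. It had 32 peaks with a summed score of 1322.0, more than the 663.8 of Shh and the 439.8 of Dhh. A run of 16 peaks spanned 35349 bp around the gene (81958336 to 81993685 on chromosome 9), with 79.3% of it covered and no gap above 1068 bp. The TSS at 81983701 fell in a gap of 382 bp. The peak on the gene side, of 4970 bp, began 201 bp away and scored 276.8 (262.2 to 292.0). The peak on the upstream side, of 4027 bp, began 181 bp away and scored 256.6 (242.5 to 271.3). The latter had the highest score per kb of any peak of these genes, 63.7, beside 41.8 at the Shh promoter and 48.6 at Dhh.

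The Ihh run continued into a larger marked region. Joining peaks that lie within 5000 bp of each other gave a domain of 142.7 kb with 56 peaks and 69.9% coverage, shared with Cdk5r2, Fev and Mir375. Fev, a serotonergic neuron transcription factor gene, contributed a peak of 32519 bp that scored 1530.9, centred 75335 bp from the Ihh TSS. The peaks of Mir375 reached 503.3 and those of Cdk5r2 230.4. Of all peak score within 100 kb of the Ihh TSS, 32.7% belonged to Ihh. The gene's own share was 55.5% at Dhh and 16.8% at Gli1, whose window was centred on its peak. At Shh, Hhip, Ptch1, Gli2 and Gli3 it was 100%. On the other side, the authors' annotation places 9 Ihh peaks in intron 5 of the neighbouring DNA repair gene Nhej1. From the first to the last of these lay 13 peaks, since 4 between them are classed by a repeat, and their scores ran from 2.89 to 48.7.

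Hhip, which binds ligands at the cell surface and blunts signalling, was marked at its start. Its promoter peak spanned 5022 bp (42429617 to 42434639 on chromosome 19, centred in intron 1) and scored 209.2 (196.5 to 222.4), below all the ligands. The TSS lay 503 bp inside its upstream edge, and 4519 bp stretched into the gene. A further peak of 2775 bp upstream scored 69.7 (62.5 to 77.6). The remaining Hhip signal was thin and spread out. There were 13 peaks more than 20 kb upstream, none above 26.8, and 9 more than 20 kb downstream, none above 7.63.

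**Figure D2:**
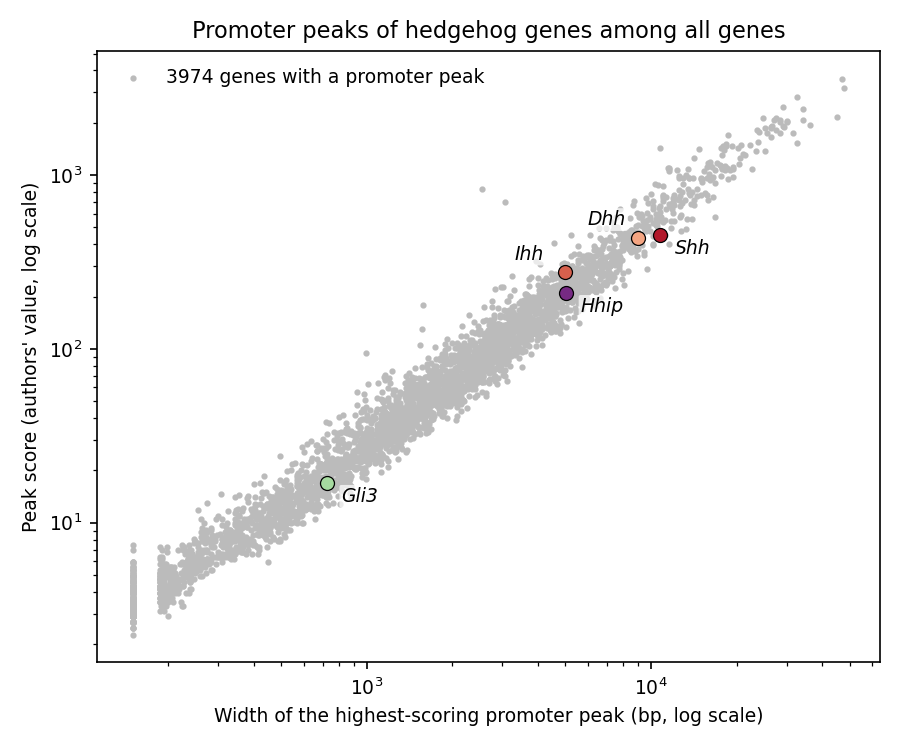
Width (bp) and score of the highest-scoring promoter peak of 3974 protein-coding genes (grey), both on log axes, with the 5 hedgehog genes that have one in colour. Shh, Dhh, Ihh and Hhip lie in the upper part, with scores between 209.2 and 450.7, and Gli3 lies below the median of 40.8.

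Ptch1, the receptor, had its peaks upstream only. Its 11 peaks were all on the upstream side of the annotated TSS (1079561 on chromosome 17), and the nearest ended 3353 bp from it. The highest, of 2384 bp centred 5958 bp upstream (1084327 to 1086711), scored 78.6 (70.9 to 86.9). Around it lay a peak of 532 bp with 15.1 and a peak of 605 bp with 22.7, and 2 small ones that the authors' annotation places in a CpG island, 7762 and 8164 bp upstream. From the TSS downstream, no peak was listed for 594597 bp. The extent of the gene in rn5 and any gaps in the assembled sequence there were not examined. By the signs of the authors' distances the gene lies on the minus strand in rn5, whereas GRCr8 has it on the plus strand, so the assemblies differ at this locus. In GRCr8 the Ptch1 gene begins 7122 bp upstream of the start used for its promoter sequence, so transcripts with earlier starts are annotated. Whether the upstream peaks cover such a start in rn5 was not tested.

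Gli1, whose transcription is a standard readout of the pathway, had 1 peak. It was 1887 bp wide (70805479 to 70807366 on chromosome 7), centred 2179 bp upstream, and scored 58.2 (51.6 to 65.4). Its edge was 1236 bp from the TSS, just outside the promoter reach of 1000 bp, while the Gli3 promoter peak lay just inside, at 444 bp. The nearby gene Arhgap9 had a peak of 84.8, centred 16324 bp from that of Gli1.

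Gli2 was the member with the least mark near its start. The closest of its 13 peaks lay 25565 bp upstream and scored 3.09, and it was the only peak within 100 kb, which left 0.075% of the window covered. Its main signal was a pair of peaks in intergenic DNA 154724 and 157255 bp upstream (40165491 to 40167145 and 40167476 to 40170222 on chromosome 13). They scored 49.7 (43.6 to 56.4) and 112.8 (103.6 to 122.7). The assignment to Gli2 rests on its TSS being the nearest.

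Gli3 had many weak peaks. With 43 it was above 95.1% of named genes by number, yet its summed score was 268.1 and 62.8% of its peaks had the smallest width. The promoter peak, of 723 bp centred 805 bp upstream (50629921 to 50630644 on chromosome 17), scored 16.9 (13.5 to 21), at percentile 34.7. A wider peak of 2460 bp in intron 1, which began 1394 bp downstream of the TSS, scored 65.6 (58.6 to 73.2). Deeper in the gene, 24 peaks were centred between 113591 and 177892 bp from the TSS, mostly in introns 3 and 4. Their scores ran from 2.68 to 5.78 with a median of 3.3, and together they covered 3972 bp. At this height their counting intervals span most of the range of the weakest peaks in the list, and no order among them can be read.

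**Figure D3:**
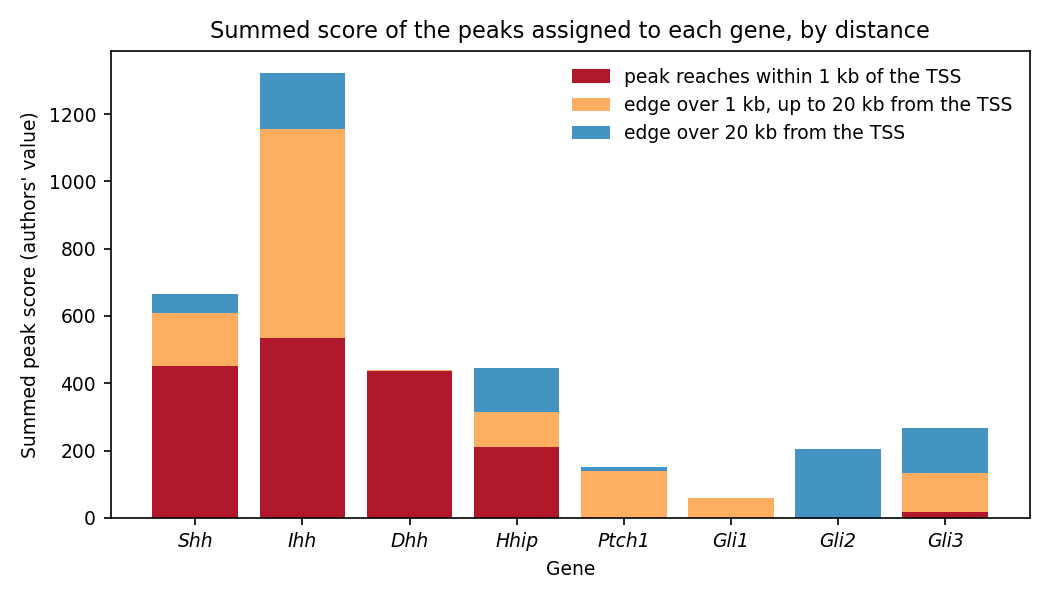
Summed peak score assigned to each gene (bars from 0), split by the distance of the peak edge from the TSS. The share from peaks that reach within 1 kb of the TSS is 99.3% for Dhh, 67.9% for Shh, 47.1% for Hhip, 40.3% for Ihh, 6.3% for Gli3 and 0% for Ptch1, Gli1 and Gli2.

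The genes therefore differed in where their signal sat. Peaks reaching within 1000 bp of the TSS held 99.3% of the summed score at Dhh, 67.9% at Shh, 47.1% at Hhip and 40.3% at Ihh. At Ptch1, 93.5% came from peaks with an edge between 1 and 20 kb away, and at Gli2 100% came from beyond 20 kb. Of the 146 peaks, 74 had the smallest width of 150 bp (50.7%, beside 45.2% of all peaks), and the 5 highest held 45.9% of the summed score. Peaks centred in repeats made up 24.7%, beside 31.1% of all peaks. These peaks of 1 gene are neighbours in the same locus and are not independent of each other.

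Gas1 is named by no peak and cannot be told from a gene that the authors' annotation lacks. Its neighbours give the only view of its surroundings. In GRCr8, Gas1 lies between 390858 and 393843 bp beyond the end of Dapk1, on the way to Isca1. In rn5, 2 broad peaks assigned to Dapk1 lay at much the same distance from the Dapk1 TSS. The nearer, of 2735 bp (7074746 to 7077481 on chromosome 17), began 390826 bp from it and scored 105.4 (96.5 to 114.9). The farther, of 4297 bp (7077723 to 7082020), ended 398100 bp from it and scored 143.4 (132.9 to 154.4). From Dapk1 to Isca1 the length was 823149 bp between the rn5 TSS and 826620 bp between the GRCr8 gene ends. The rn5 distances thus start at a TSS and the GRCr8 distances at a gene end. Whether these lie on the same side of Dapk1 was not determined. The interval held 117 peaks, 6 of them with a score of at least 100. The position of Gas1 in rn5 was not determined, so these peaks are not counted for it.

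Promoter sequences were compared because broad H3K27me3 in mammals is known to favour CpG-rich DNA. RefSeq promoter windows of GRCr8, from 250 bases before to 50 after the gene start, were matched for 5 of the 9 genes. Such a window covers little of a broad peak, so CpG content under the peaks was not measured. The windows held 10 CpG dinucleotides at Dhh, 12 at Ptch1, 13 at Hhip, 29 at Gli3 and 34 at Gli2. The median was 17 over 3011 genes with a promoter peak and 11 over 15988 genes without. Dhh, with a peak of 8983 bp, stood at percentile 45 of all promoters by CpG count, and Gli2, whose closest peak lay 25565 bp away, at percentile 90.7. Both are shown because they differ in this way, 5′ to 3′ with CpG dinucleotides in capitals, Dhh from chr7:131935303-131935602 and Gli2 from chr13:32716369-32716668, each on the minus strand.
Dhh: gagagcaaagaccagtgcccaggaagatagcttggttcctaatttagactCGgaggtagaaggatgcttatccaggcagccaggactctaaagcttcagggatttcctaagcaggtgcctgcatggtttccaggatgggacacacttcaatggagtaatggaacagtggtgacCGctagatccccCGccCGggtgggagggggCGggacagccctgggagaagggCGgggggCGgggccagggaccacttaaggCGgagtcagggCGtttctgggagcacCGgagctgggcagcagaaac
Gli2: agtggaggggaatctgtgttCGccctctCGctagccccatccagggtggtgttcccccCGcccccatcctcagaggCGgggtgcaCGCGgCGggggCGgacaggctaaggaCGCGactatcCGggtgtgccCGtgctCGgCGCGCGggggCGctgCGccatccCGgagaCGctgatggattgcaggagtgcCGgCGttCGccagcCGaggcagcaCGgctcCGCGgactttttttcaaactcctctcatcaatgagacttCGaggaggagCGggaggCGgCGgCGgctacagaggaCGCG

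The letters bound by Gli proteins, GACCACCCA or on the other strand TGGGTGGTC, were searched in the same windows. This 9-base motif occurred in 66 of 18999 protein-coding promoters (0.347%). Of the 5 hedgehog genes, Ptch1 held it, 172 bases before the start, and the other 4 windows did not hold these letters. The Ptch1 window is shown with the match in capitals (GRCr8 chr17:1555321-1555620, plus strand), since Ptch1 is both receptor and target and had no peak at its annotated rn5 start. A match is a description of the letters and not a measured site.
Ptch1: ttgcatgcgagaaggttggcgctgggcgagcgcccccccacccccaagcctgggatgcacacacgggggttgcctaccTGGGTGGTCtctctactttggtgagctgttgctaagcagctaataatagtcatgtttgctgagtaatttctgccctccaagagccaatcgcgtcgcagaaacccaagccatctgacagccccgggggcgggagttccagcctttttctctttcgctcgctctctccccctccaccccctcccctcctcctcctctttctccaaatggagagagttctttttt

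Of 40 further genes of signal transduction, 8 (20%) had a promoter peak, near the 17.2% of all genes. By role these were 4 of 5 receptors and co-receptors, 4 of 12 genes of ligand processing and release, and 0 of 23 genes of the cytoplasm and cilium. Highest were Lrp2, an endocytic receptor that takes part in Shh uptake (147.5, counting interval 136.9 to 158.7), and Sulf1, which edits heparan sulphate (136.8). Disp2, a relative of the ligand exporter Disp1, followed with 128.7. Smo, the signal transducer itself, had a peak of 2439 bp with 87 (78.9 to 95.8), and Scube1 one with 75.3. Boc and Hhat are named by no peak and, like Gas1, cannot be told from genes that the authors' annotation lacks. The closest peak of Hhatl ended 6042 bp away. Of the 23 cytoplasmic and ciliary genes, 11 (47.8%) are named by a peak farther away, near the 44.4% of protein-coding genes that any peak names. At a reach of 5000 bp the count over all 40 was 15, beside 27.7% of all genes, with 4 of 5, 6 of 12 and 5 of 23 by role, and peaks that contain the TSS gave 2, beside 6.15% of all genes. The top 25% of scores gave 5, beside 12.6% of all genes, and centres in the promoter-TSS class 4, beside 8.27%.

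Hedgehog target genes, listed for their response in at least 1 tissue and with earlier results of these data known, were marked in most cases. Of 40 such genes, 34 are named by at least 1 peak and 31 (77.5%) had a promoter peak. Promoter peaks were present at 17.2% of all genes and at 38.7% of protein-coding genes that at least 1 peak names. For 29 targets the promoter peak was among the top 25% of peak scores, beside 12.6% of all genes. Their highest promoter scores reached 2077.8 with a median of 166.3. The leading genes were regulators of embryonic pattern: Nkx2-1 of ventral forebrain, thyroid and lung (2077.8, 34151 bp), Pax9 of tooth and vertebra (1369.6), Nkx2-2 (1328.2) and Nkx6-1 (1179) of ventral spinal cord, and Hoxd13 of the digits (1096.9). All 5 scored above Shh. No peak names Foxf1, Foxf2 or Foxl1, and like Gas1 they cannot be told from genes that the authors' annotation lacks. Peaks that contain the TSS gave 16 (beside 6.15% of all genes), and centres in the promoter-TSS class 10 (beside 8.27%). Many genes of this list are developmental regulators, a class known to carry the mark in many tissues, and transcription was not measured here.

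**Figure D4:**
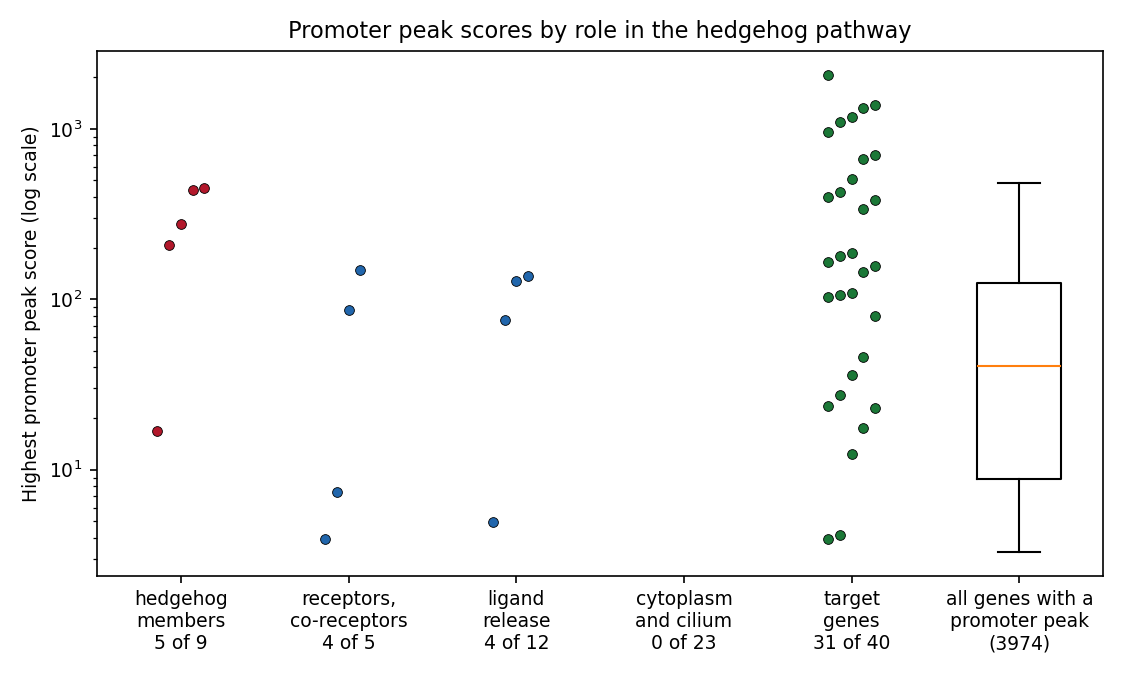
Highest promoter peak score per gene on a log axis, for genes with a promoter peak in each list, with the number of genes that have one below each column. The box gives the quartiles and median of all 3974 genes with a promoter peak, with whiskers to percentiles 5 and 95. The column of cytoplasm and cilium genes is empty (0 of 23).

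The genes most like the ligands in the width and score of their promoter peak were found by the distance in log2 width and log2 score among the 3974 genes. For Shh these were Elavl2 (10867 bp, 440.2) and Kirrel2 (11189 bp, 449.5). For Dhh they were Olig1 (8897 bp, 440.6) and Ovol1 (9141 bp, 432.3), and for Ihh they were Il20ra (4932 bp, 272.3) and Chrna3 (5052 bp, 279.1).

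Markers of the cells that the labelled tissue should hold were examined for the same mark. Transcription was not measured, so they do not settle which cells the samples held. Promoter peaks were present at 3 of 7 Schwann cell genes, 3 of 6 fibroblast genes, 2 of 3 perineurial genes, 1 of 4 endothelial genes and 0 of 4 macrophage genes, beside 17.2% of all protein-coding genes. The shares at Schwann cell (42.9%), fibroblast (50%), perineurial (66.7%) and endothelial (25%) genes were thus above that of all genes, in short lists and without a test. At Sox10, which defines Schwann cells, the peak had the smallest width and a score of 4.13, and at Erbb3 it scored 117.2. The fibroblast receptor gene Pdgfra had a promoter peak of 10453 bp that scored 561.3, above Shh. Kdr of endothelial cells had 65.6 and Cldn1 of perineurial cells 55.1. No peak names S100b, which may likewise be missing from the authors' annotation.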

How the data were processed

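H3K27me3 was measured by MNase ChIP-seq in sham sciatic nerve. The submitters' processing notes name CASAVA 1.8.2, Bowtie and HOMER. Per the file headers, the authors' HOMER peak list combines the sham H3K27me3 libraries and was annotated against rn5. The use of the input, the calling settings and the way libraries were joined are not stated there. The authors deposited the score without naming its scale, and coordinates are printed as deposited.

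Peaks were taken by the gene name in the list. TSS positions were inferred from peak centres and the authors' distances where all peaks of a transcript gave 1 position within 2 bp (9412 of 10910 transcripts). Gli1, with 1 peak, has no inferred position. Genes were matched by identifier to a GRCr8 table (10567 of 10647), used for names, chromosomes and distances within that assembly. Python 3.11.15, pandas 2.3.3 and scipy 1.17.1 were used, and the steps were tested on simulated peaks. With 1 pooled value per peak, no test was made.

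The members and gene lists were chosen with earlier results of these data known. Named genes were all 9 members and, of each list, the 5 highest-scoring genes and the first 3 without a promoter peak. Also named were 2 genes most like each ligand, and neighbours within 100 kb with a score above 50. Rhebl1, Nhej1, Dapk1 and Isca1 are named outside this rule, as neighbours. Some listed genes are not reported here by name. The genes printed from the marker list, and those given for peaks away from the start, were chosen after their values were seen. Alternatives changed the promoter reach, score minimum, merging, assignment and background.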

Additional observations from a re-analysis of the deposited data

How the results depend on the processing

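No paired analysis was possible because the list is combined over the libraries, and for the same reason no replicate could be left out. The count of hedgehog genes with a promoter peak, 5 of 9, was 5 with scores from the median of 4.54 up, with the top 25% of scores, with merged peaks and with any peak near the TSS. It was 7 at a reach of 5000 bp, 3 at a reach of 0 bp and 1 with promoter-TSS centres alone. For the transduction genes the count of 8 became 2 at a reach of 0 bp, 15 at 5000 bp, 4 with promoter-TSS centres and 5 in the top 25% of scores. For the target genes 31 became 16 at a reach of 0 bp and 10 with promoter-TSS centres. The cause was not tested. The shares of all genes were 17.2% at first, 6.15% at 0 bp, 27.7% at 5000 bp, 8.27% with promoter-TSS centres and 12.6% in the top 25% of scores. Merging peaks within 5000 bp raised the promoter score of Shh to 609.5 and its width to 23169 bp, and that of Hhip to 314.6 and 13461 bp. At Gli3 it gave 130.1 and 15888 bp, and at Ihh 4198.9 and 142695 bp, which includes its neighbours. Depth limits the weakest peaks: the smallest score of 1.86 rests on few tags.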

Other observations

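Several hedgehog pathway and target genes had their highest-scoring peak outside the promoter reach of 1000 bp. They were picked after their values were seen. At some the higher peak lay close by. Foxa2, a floor plate and endoderm regulator, had a promoter peak of 157 and a peak of 1441 whose edge was 1077 bp downstream of the TSS. The ligand gene Bmp4 had 103.5 at the promoter and 539.6 with its edge 1380 bp upstream. Nr2f1, a nuclear receptor gene of neural crest and brain, had 23.7 and, 4166 bp downstream, 1093. Scube3, a gene of ligand release, had 4.95 and, 4941 bp upstream, 190.6. At others it lay farther off. The co-receptor gene Cdon had 7.43 at its promoter and 82.1 at 33603 bp upstream, and Nr2f2, a relative of Nr2f1, had 22.9 and, 68988 bp downstream, 497.5. Peaks are assigned by the nearest TSS, and whether they act on these genes was not tested.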
